A study of Mus musculus with 26 samples.

Results

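Liver tumours begun in pericentral hepatocytes were compared with control liver, using 16 of the 26 libraries of the series: 10 from tumours of 9 animals and 6 from control livers. The tumour group (Cyp1a2_CA) was every library carrying Cyp1a2-CreERT2 together with Ctnnb1(ex3)fl/+ and Arid2fl/fl, and the control group every library with the genotype WT. Cyp1a2-CreERT2 is a recombinase that works only after tamoxifen and only where the promoter of Cyp1a2 is active, in hepatocytes near the central vein. Where it acts, it removes exon 3 from 1 copy of Ctnnb1, which leaves a beta-catenin that escapes degradation, and recombines both floxed copies of Arid2, which encodes part of the chromatin remodeller PBAF. Tumour mice were of mixed C57BL/6J and Swiss Webster background, received tamoxifen at postnatal day 28 and were followed for 6 to 12 months. WT mice were C57BL/6J, received Cre from an adeno-associated virus with no floxed allele in their label, and stayed on normal chow for up to 12 months. Strain, tamoxifen, virus, follow-up and tissue state therefore changed together with the genotype and cannot be told apart. Read depth changed with the group as well. Whether WT and tumour libraries were made in the same series is not stated, so an effect of library preparation cannot be told apart either. The libraries CAB28-S and CAB28-L share an animal number and were summed before testing, so n is 9 tumour animals and 6 WT animals. Each tumour library is a fragment of frozen tissue, and the labels give neither sex nor the time of day at collection.

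Hepatocytes take up amino acids and break them down, store glycogen, secrete most plasma proteins, conjugate drugs and bilirubin and export the products. These tasks are divided along the liver lobule, and beta-catenin signalling sets the part done near the central vein. The beta-catenin targets, the zonation genes and the cell cycle genes are left aside here, and the description covers the other functions of the hepatocyte, the stress and growth pathways and the clock.

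Libraries held 37051941 to 49254470 counted reads in tumours and 13486530 to 16975288 in WT, with no overlap. Levels are CPM, the read count of a gene divided by the effective library size after TMM scaling, given per animal as lowest, highest and median, and fold changes are log2 of tumour over WT. Of 16841 genes tested with edgeR, 11941 (70.9%) had an adjusted p under 0.05, 6442 of them higher (38.3%) and 5499 lower (32.7%) in tumours, so a call by itself says little about a gene. Genes with more than 8000 bases of exon had a median log2 fold change of 1.28 and genes of up to 1000 bases -1.01, so every gene was also fitted with a per-library offset for exon length and GC content. That fit called 10288 of 15183 genes (67.8%), 5506 higher (36.3%) and 4782 lower (31.5%), and brought the same 2 medians to 0.24 and -0.12. Below, a gene "rose" or "fell" only where both fits called it in the same direction, as they did for 4975 genes upwards (32.8% of 15183) and 3977 downwards (26.2%). Each count of a list is followed by its shares in percent that rose and fell, to be read against these shares of all genes. The median log2 fold change of all tested genes was 0.17, and 0.14 with the offset. Short structural RNAs were also lower in tumour libraries, among them Rn7sk (17.7 to 29.8 CPM in tumours, median 24.4, and 68.7 to 251 in WT, median 187). Rpph1 fell further (23.7 to 99.2 CPM in tumours, median 67.7, and 918 to 3074 in WT, median 2193). Mitochondrially encoded protein genes held 1.95 to 3.89% of counts in tumours against 8.90 to 11.1% in WT. The part of these RNAs and genes in the results was not tested. The animals CAB44 and CAB225 had titin (Ttn) above 1000 CPM, and values without them are given where they change a result.

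The label was checked on the targeted and defining genes. Arid2 was at 24.4 to 37.2 CPM in tumours, median 29.9, and 62.4 to 75.1 in WT, median 69.6, with no overlap (log2 fold change -1.18, SE 0.105, adjusted p = 6.2e-08, and -2.13 with the offset), while a total over the gene does not show which exons were lost. Without the offset, genes that were not targeted fell as far, also with no overlap: Actb (-1.22, and -0.87 with the offset), Tbp (-1.29 and -2.44), Ppia (-1.46 and -1.27) and Malat1 (-1.21 and -1.63). With the offset, only Tbp of these genes fell as far as Arid2. Hprt (-1.41 and -0.47) passed only without the offset. Gapdh overlapped (-0.24, adjusted p = 0.10, and -0.33, adjusted p = 0.035, with the offset). The fall of Arid2 by itself therefore does not establish the label. Ctnnb1 was at 81.5 to 218 CPM in tumours, median 114, and 149 to 179 in WT, median 171, with the groups overlapping. Ctnnb1 had a log2 fold change of -0.31, adjusted p = 0.19, and -0.55, adjusted p = 0.017, with the offset. Without CAB44 and CAB225 its log2 fold change was -0.57 (adjusted p = 0.0026). Of the 8 hepatocyte markers, none rose and 6 fell (0% and 75%). Albumin (Alb) was at 5036 to 30544 CPM in tumours, median 10756, and 51074 to 72223 in WT, median 57067. Fetuin-A (Ahsg) was at 2651 to 49810.2 CPM in tumours, median 7711, and 6543 to 9047 in WT, median 7519. Ahsg had a log2 fold change of 0.59, adjusted p = 0.35, and 0.99, adjusted p = 0.12, with the offset. Without CAB52 the Ahsg value was -0.18 (adjusted p = 0.61). The Y-linked Ddx3y was present in all 15 animals (lowest 75.6 CPM) and Xist reached at most 4.92 CPM. Other Y-linked genes did not share that level: Kdm5d was at 1.30 to 35.98 CPM in tumours, median 15.5, and 19.3 to 22.7 in WT, median 20.4. Kdm5d had a log2 fold change of -0.32, adjusted p = 0.65, and -1.74, adjusted p = 0.014, with the offset. Uty rose (230.0 CPM against 35.2, medians), as did Eif2s3y (112 CPM against 42.9). Of the whole list of sex-linked and sex-biased genes, 3 rose and 6 fell of 14 tested (21.4% and 42.9%). Summed over that list, the level was 517 to 2619 CPM in tumours and 12563.5 to 21668 in WT. Markers of other liver cells moved too. Of the 8 Kupffer cell and macrophage markers, none rose and 3 fell (0% and 37.5%). In the fit without the offset, 5 were lower and none higher when CAB228 was left out. Medians of tumours and WT were 2.40 CPM against 17.9 for Vsig4 and 8.66 CPM against 77.8 for Clec4f. Sinusoidal genes fell for 5 of 9 endothelial markers while Pecam1 rose (11.1% rose and 55.6% fell), with Pecam1 at 81.8 CPM against 21.5. Of the 8 stellate cell and fibroblast markers, 1 rose and 3 fell (12.5% and 37.5%). Their median log2 fold change was 0.21, and -0.62 with the offset. Their summed level overlapped, at 199 to 717 CPM in tumours and 389 to 540 in WT. The stellate cell enzyme Lrat was among those that fell (5.18 CPM against 36.6). Summed over their lists, macrophage markers were at 62.4 to 209 CPM in tumours and 240.1 to 285 in WT, endothelial markers at 187 to 307 CPM in tumours and 348 to 401 in WT and cholangiocyte markers at 13.996 to 173 CPM in tumours and 31.4 to 53.4 in WT. In bulk tissue, fewer cells of a type and less RNA per cell cannot be told apart.

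**Figure D1:**
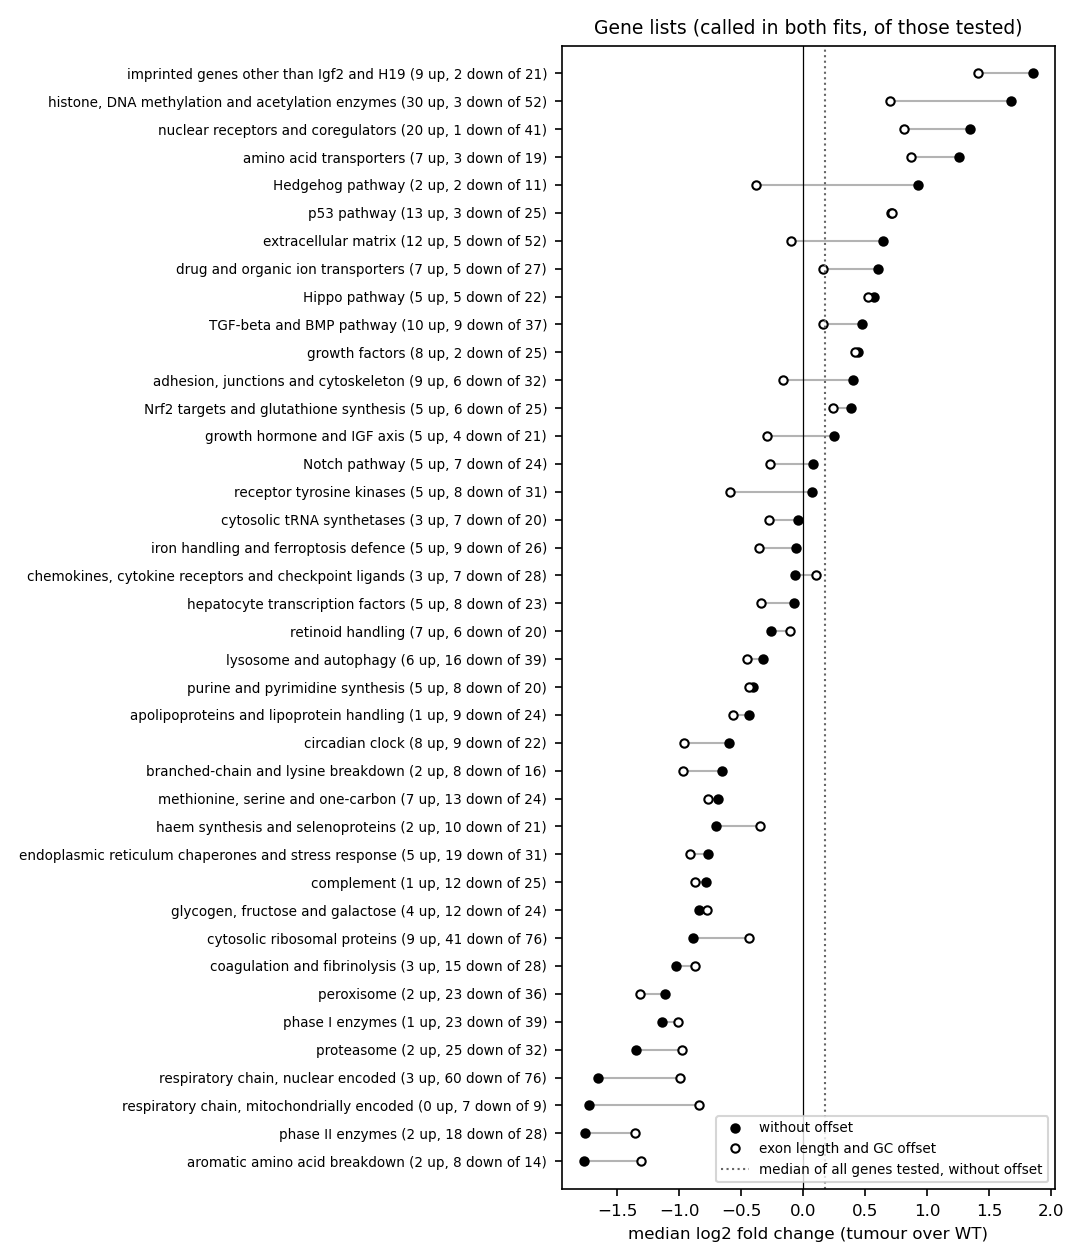
Median log2 fold change (tumour over WT) of the tested members of each gene list, without an offset (filled) and with the exon length and GC offset (open); the numbers in brackets are members that rose and fell in both fits. Respiratory chain, aromatic amino acid and conjugation lists lie to the left of 0 in both fits. The extracellular matrix, receptor tyrosine kinase, growth hormone and IGF, Notch, Hedgehog, adhesion and chemokine lists change sign with the offset.

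Enzymes of amino acid breakdown fell more often than they rose in the tumours. In the breakdown of tryptophan, phenylalanine and tyrosine, 2 rose and 8 fell of 14 tested (14.3% and 57.1%; median log2 fold change -1.77, and -1.31 with the offset). Tdo2, which opens the tryptophan ring and starts the kynurenine route, was at 43.3 to 226 CPM in tumours, median 103, and 1006 to 1428 in WT, median 1250.1. Every tumour animal lay below every WT animal, and the fall was about 10.3-fold. Tdo2 had a log2 fold change of -3.36, SE 0.318, adjusted p = 1.3e-07, and -3.17 with the offset. Kmo, the next oxygenase of that route, was at 15.7 to 38.8 CPM in tumours, median 26.6, and 143 to 243 in WT, median 214. Kmo had a log2 fold change of -2.90, SE 0.203, adjusted p = 4.3e-09, and -2.98 with the offset. Fah, which makes the last cut in tyrosine breakdown, was at 73.5 to 147 CPM in tumours, median 124, and 494 to 598 in WT, median 572, again with no overlap. Fah had a log2 fold change of -2.33, and -2.01 with the offset. Tyrosine aminotransferase Tat also fell (log2 fold change -2.57, and -2.12 with the offset), but CAB145 had 805 CPM and the other 8 tumours at most 221. For branched-chain amino acids and lysine, 2 rose and 8 fell of 16 tested (12.5% and 50%), among them Mccc2 of leucine breakdown (10.1 CPM against 57.8, medians) and Aass of lysine breakdown (46.98 CPM against 329.8).

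The methionine cycle and the folate pathway changed in both directions: 7 rose and 13 fell of 24 tested (29.2% and 54.2%). Ahcy, which removes S-adenosylhomocysteine after each methylation, was at 9.38 to 30.7 CPM in tumours, median 20.3, and 290.5 to 349.6 in WT, median 330.2. This was a 15.95-fold fall that no tumour animal escaped. Ahcy had a log2 fold change of -3.996, SE 0.192, adjusted p = 1.0e-10, and -3.70 with the offset. Gnmt, which methylates glycine, and Bhmt, which remakes methionine from betaine, fell with log2 fold changes of -1.90 and -2.68. Gldc of the glycine cleavage system was at 1.87 to 25.2 CPM in tumours, median 13.6, and 92.4 to 141 in WT, median 127. Gldc had a log2 fold change of -3.11, SE 0.384, adjusted p = 2.8e-06, and -3.65 with the offset. Serine synthesis genes are barely transcribed in normal liver, and Psat1 was at 0.603 to 101 CPM in tumours, median 3.05, and 0.220 to 1.58 in WT, median 0.735, with the groups overlapping. Psat1 had a log2 fold change of 4.203, SE 1.17, adjusted p = 0.0047, and 4.19 with the offset. The top value belonged to CAB52, and without that animal the Psat1 log2 fold change was 2.27 (adjusted p = 0.0024). CAB52 was also the highest tumour for Psph (34.3 CPM) and the lowest for Bhmt (15.5), Gnmt (31.6) and Aass (4.36). In nucleotide synthesis 5 rose and 8 fell of 20 tested (25% and 40%): Ppat, which starts purine synthesis, fell (6.74 CPM against 45.3) and Ctps2, which makes CTP, rose (54.6 CPM against 7.88).

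Of the amino acid transporters 7 rose and 3 fell of 19 tested (36.8% and 15.8%; median log2 fold change 1.26, and 0.87 with the offset), a share of rises near that of all genes. The taurine carrier Slc6a6 was at 262 to 424 CPM in tumours, median 340.2, and 78.9 to 113 in WT, median 100.1. The neutral amino acid carrier Slc1a4 was at 7.13 to 37.7 CPM in tumours, median 18.7, and 1.52 to 3.55 in WT, median 2.31. The cationic amino acid carrier Slc7a7 was at 13.9 to 63.8 CPM in tumours, median 22.2, and 3.29 to 5.48 in WT, median 4.42. None of the 3 genes had overlapping groups, with log2 fold changes of 1.76, 2.94 and 2.64 (1.04, 2.91 and 2.80 with the offset). The cystine carrier Slc7a11 was at 0.0548 to 316 CPM in tumours, median 3.42, and 0 to 0.131 in WT, median 0.0648. The lowest tumour lay within the WT range. Slc7a11 had a log2 fold change of 9.40, SE 2.27, adjusted p = 0.0016, and 8.35 with the offset. CAB52 had 316 CPM and the next tumour 19.3, and without CAB52 the log2 fold change was 6.38 (adjusted p = 3.0e-04). The glutamine carriers Slc38a2 and Slc38a3 fell. Slc38a2 had a log2 fold change of -0.79, and -1.49 with the offset. Slc38a3 had a log2 fold change of -0.60, and -1.04 with the offset.

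Plasma protein genes of the hepatocyte fell more often than they rose. In coagulation and fibrinolysis 3 rose and 15 fell of 28 tested (10.7% and 53.6%; median log2 fold change -1.02, and -0.88 with the offset) and in complement 1 rose and 12 fell of 25 tested (4% and 48%; median log2 fold change -0.79, and -0.87 with the offset). The terminal complement protein C9 was at 3.47 to 89.4 CPM in tumours, median 41.01, and 696 to 1453 in WT, median 906, a 25.8-fold fall. C9 had a log2 fold change of -4.69, SE 0.584, adjusted p = 3.0e-06, and -4.21 with the offset. C8b, which binds beside C9 in the membrane attack complex, was at 32.2 to 208 CPM in tumours, median 73.0, and 547 to 833 in WT, median 641. C8b had a log2 fold change of -2.87, SE 0.340, adjusted p = 1.7e-06, and -2.46 with the offset. In both genes the highest tumour stayed under the lowest WT animal. The fibrinogen beta chain Fgb was at 389 to 1396 CPM in tumours, median 734, and 3816 to 6324 in WT, median 4249. Plasma prekallikrein Klkb1 was at 41.5 to 125 CPM in tumours, median 79.5, and 378 to 461 in WT, median 423. Fgb had a log2 fold change of -2.44, SE 0.244, adjusted p = 2.4e-07, and -2.30 with the offset. Klkb1 had a log2 fold change of -2.48, and -2.63 with the offset. The fibrinogen alpha chain Fga, prothrombin F2 and antithrombin Serpinc1 fell with smaller log2 fold changes (-1.46, -1.19 and -0.90). Plat, the tissue plasminogen activator, rose from 0 to 0.934 CPM in WT to 1.18 to 51.7 in tumours. Plat had a log2 fold change of 5.53, SE 0.919, adjusted p = 6.1e-05, and 5.13 with the offset. It was 4.82 (adjusted p = 9.1e-05) without CAB44 and CAB225 and 6.15 (adjusted p = 9.8e-05) without BL1. The complement regulator Cd46 rose as well (6.60 CPM against 1.12, medians).

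In lipoprotein handling 1 rose and 9 fell of 24 tested (4.17% and 37.5%; median log2 fold change -0.44, and -0.57 with the offset). Apoa5, an activator of triglyceride clearance, was at 23.7 to 218 CPM in tumours, median 127, and 627 to 979 in WT, median 758, and fell with no overlap. Apoa5 had a log2 fold change of -2.67, SE 0.352, adjusted p = 5.6e-06, and -2.53 with the offset. Apoc3, an inhibitor of triglyceride clearance, and the assembly protein Mttp passed in neither direction without the offset. Apoc3 had a log2 fold change of -0.43, adjusted p = 0.066, and 0.16, adjusted p = 0.48, with the offset.

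Enzymes of both steps of drug metabolism fell more often than they rose. Of the phase I enzymes outside the zonation list, 1 rose and 23 fell of 39 tested (2.56% and 59%), and of the conjugating enzymes 2 rose and 18 fell of 28 tested (7.14% and 64.3%; median log2 fold change -1.76, and -1.36 with the offset, for the conjugating enzymes). Cyp2d9 was at 25.4 to 183 CPM in tumours, median 75.6, and 1146 to 1256 in WT, median 1198. Cyp3a13 was at 14.7 to 25.1 CPM in tumours, median 18.7, and 89.7 to 178 in WT, median 109. Both were separated without overlap. Cyp2d9 had a log2 fold change of -3.86, SE 0.403, adjusted p = 4.2e-07, and -3.62 with the offset. Cyp3a13 had a log2 fold change of -2.59, and -2.17 with the offset. The major drug-metabolising Cyp3a11 was at 64.8 to 755 CPM in tumours, median 396, and 543 to 756 in WT, median 707, and did not pass (log2 fold change -0.82, adjusted p = 0.065, and -0.89, adjusted p = 0.054, with the offset), although it passed in 8 of 26 alternative settings, among them leaving out CAB145, CAB26 or CAB225. Glucuronosyltransferase Ugt2b38 was close to absent in tumours: it was at 0.0241 to 0.776 CPM in tumours, median 0.0566, and 7.78 to 29.5 in WT, median 19.5. Ugt2b38 had a log2 fold change of -6.98, SE 0.676, adjusted p = 1.8e-07, and -6.27 with the offset. Without CAB26, its highest tumour, the log2 fold change was -7.96 (adjusted p = 1.4e-09). The bilirubin-conjugating Ugt1a1 was at 81.5 to 254 CPM in tumours, median 185, and 609.6 to 750.3 in WT, median 679. Ugt1a1 had a log2 fold change of -1.91, SE 0.208, adjusted p = 6.1e-07, and -1.43 with the offset. Thiopurine methyltransferase Tpmt and the sulphotransferase Sult1a1 rose. Tpmt had a log2 fold change of 2.07, and 2.30 with the offset. Sult1a1 had a log2 fold change of 1.26, and 1.98 with the offset. Members of the Cyp2c, Cyp2d, Ces1, Ugt1a and Ugt2b families share sequence or exons, so the split of reads among them is uncertain.

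Of the drug and organic ion transporters 7 rose and 5 fell of 27 tested (25.9% and 18.5%), neither share above that of all genes. Among uptake carriers, the organic anion carrier Slc22a7 was at 0.650 to 6.47 CPM in tumours, median 1.41, and 44.4 to 109 in WT, median 67.4. This was a 36.7-fold fall. Slc22a7 had a log2 fold change of -5.20, SE 0.495, adjusted p = 1.5e-07, and -4.98 with the offset. The bile acid carrier Slc10a1 (121 CPM against 487, medians) and Slco1a1 (89.7 CPM against 940.3) fell too, whereas Slco1b2 was at 537 to 2372 CPM in tumours, median 1722, and 1276 to 1794 in WT, median 1435. Slco1b2 had a log2 fold change of -0.02, adjusted p = 0.96, and -0.06, adjusted p = 0.86, with the offset. The basolateral export pumps Abcc4 and Abcc5 rose. Abcc4, which exports bile acids and nucleotides, was at 22.3 to 402 CPM in tumours, median 72.7, and 2.35 to 4.29 in WT, median 3.01, and Abcc5, an exporter of cyclic nucleotides, at 42.95 to 371 CPM in tumours, median 128, and 5.43 to 7.79 in WT, median 6.85. All 9 tumours exceeded all WT animals for both pumps. Abcc4 had a log2 fold change of 5.58, SE 0.749, adjusted p = 6.7e-06, and 5.19 with the offset. Abcc5 had a log2 fold change of 4.59, and 3.58 with the offset. The canalicular bile salt pump Abcb11 was at 234 to 623 CPM in tumours, median 485, and 447 to 605 in WT, median 495. Abcb11 had a log2 fold change of -0.17, adjusted p = 0.44, and -0.37, adjusted p = 0.12, with the offset. Slc22a27, a carrier of the same family as Slc22a7, was nearly unread in WT and reached 81.3 CPM in tumours (1.15 to 81.3 CPM in tumours, median 23.2, and 0 to 0.263 in WT, median 0). CAB225 was its lowest tumour, at 1.15 CPM, and the next had 16.5.

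**Figure D2:**
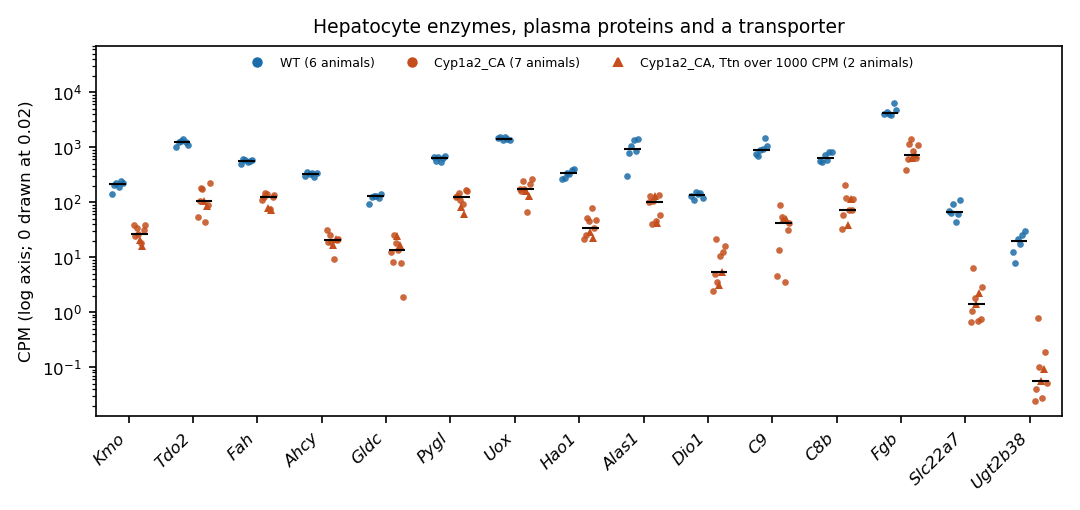
CPM per animal (log axis, 0 drawn at 0.02) of 15 genes of amino acid, sugar, peroxisomal, haem, thyroid hormone, plasma protein, drug conjugation and organic anion transport functions in 6 WT animals and 9 tumour animals, with black bars at the medians and triangles for CAB44 and CAB225. For each of the 15 genes every tumour animal lies below every WT animal.

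Peroxisomal genes fell more often than they rose: 2 rose and 23 fell of 36 tested (5.56% and 63.9%; median log2 fold change -1.11, and -1.32 with the offset). Urate oxidase Uox was at 65.8 to 268 CPM in tumours, median 171, and 1354 to 1556 in WT, median 1427. The glycolate oxidase Hao1 was at 21.7 to 77.6 CPM in tumours, median 33.3, and 262 to 396 in WT, median 338. Catalase Cat was at 584 to 1262 CPM in tumours, median 853, and 3197 to 3931 in WT, median 3340.3. No tumour animal reached the lowest WT animal for these enzymes. Uox had a log2 fold change of -3.03, SE 0.228, adjusted p = 9.7e-09, and -3.15 with the offset. Hao1 had a log2 fold change of -3.09, and -2.57 with the offset. Cat had a log2 fold change of -1.96, and -1.57 with the offset. Agxt, which clears glyoxylate, fell by 4.83-fold. Hao2, a related hydroxyacid oxidase, was read in every tumour (1.22 to 46.9 CPM, median 5.09) and in 1 WT animal (0.0671 CPM). In glycogen, fructose and galactose handling 4 rose and 12 fell of 24 tested (16.7% and 50%). Liver glycogen phosphorylase Pygl was at 61.9 to 168 CPM in tumours, median 123, and 546 to 681 in WT, median 643, with no overlap. Pygl had a log2 fold change of -2.39, SE 0.192, adjusted p = 2.0e-08, and -2.86 with the offset. Ketohexokinase Khk, which starts fructose breakdown, was at 123 to 464 CPM in tumours, median 207, and 293 to 359.6 in WT, median 313, and did not pass. Khk had a log2 fold change of -0.28, adjusted p = 0.36, and -0.07, adjusted p = 0.83, with the offset.

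Of the nuclear genes of the respiratory chain, 3 rose and 60 fell of 76 tested (3.95% and 78.9%; median log2 fold change -1.66, and -0.998 with the offset), and of the mitochondrially encoded genes 0 rose and 7 fell of 9 tested (0% and 77.8%; median log2 fold change -1.73, and -0.84 with the offset). ATP synthase subunit Atp5a1 was at 120.1 to 231 CPM in tumours, median 178, and 886 to 1038 in WT, median 942 (log2 fold change -2.40, SE 0.135, adjusted p = 4.5e-10, and -2.29 with the offset), and cytochrome b (CYTB) had 5703 CPM as the tumour median against 19757 in WT. CYTB had a log2 fold change of -1.81, and -0.84 with the offset. In the proteasome 2 rose and 25 fell of 32 tested (6.25% and 78.1%; median log2 fold change -1.35, and -0.98 with the offset), with Psmc4 of the base at 11.02 to 20.2 CPM in tumours, median 15.1, and 53.1 to 63.8 in WT, median 62.6, while Nfe2l1, the factor that drives proteasome genes, rose (239.8 CPM against 83.0, medians). Among cytosolic ribosomal proteins 9 rose and 41 fell of 76 tested (11.8% and 53.9%; median log2 fold change -0.89, and -0.44 with the offset); Rpl9 was at 32.4 to 38.4 CPM in tumours, median 36.1, and 129.5 to 149 in WT, median 140.2. Rps24 was at 513 to 930.0 CPM in tumours, median 642, and 139 to 154 in WT, median 148. Several ribosomal protein genes have near-identical pseudogene copies, so their single values are uncertain. Lysosome and autophagy genes were mixed (6 rose and 16 fell of 39 tested (15.4% and 41%)): cathepsin D (Ctsd) fell (65.9 CPM against 192) and the lysosomal regulators Tfe3 (129.9 CPM against 26.8) and Mitf (35.9 CPM against 8.12) rose.

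Haem and selenium genes fell more often than they rose: 2 rose and 10 fell of 21 tested (9.52% and 47.6%; median log2 fold change -0.70, and -0.35 with the offset). Alas1, the first step of haem synthesis, was at 40.3 to 138 CPM in tumours, median 102, and 294.2 to 1413 in WT, median 938, and the selenoenzyme Dio1, which activates thyroid hormone, at 2.46 to 21.2 CPM in tumours, median 5.46, and 108 to 154 in WT, median 136. Tumours and WT were apart for both genes. Alas1 had a log2 fold change of -3.43, SE 0.373, adjusted p = 6.5e-07, and -3.95 with the offset. Dio1 had a log2 fold change of -3.93, SE 0.440, adjusted p = 9.3e-07, and -3.405 with the offset. The selenium carrier of plasma, Sepp1 (selenoprotein P), was at 2156 to 8833 CPM in tumours, median 5009, and 5219 to 5747 in WT, median 5628, and did not pass. Sepp1 had a log2 fold change of -0.12, adjusted p = 0.69, and 0.28, adjusted p = 0.33, with the offset. In iron handling 5 rose and 9 fell of 26 tested (19.2% and 34.6%). The hepcidin gene Hamp2 was at 0.0769 to 10.95 CPM in tumours, median 0.675, and 17.1 to 63.3 in WT, median 25.4. Hamp2 had a log2 fold change of -4.06, SE 0.9005, adjusted p = 8.4e-04, and -3.13 with the offset. CAB44 was its highest tumour, and the log2 fold change was -5.29 (adjusted p = 1.1e-05) without CAB44 and -5.27 (adjusted p = 2.2e-05) without CAB44 and CAB225. Hamp, the hepcidin that controls iron export, was at 6.23 to 243 CPM in tumours, median 115, and 436 to 793 in WT, median 541, without overlap, but passed only without the offset. Hamp had a log2 fold change of -2.45, adjusted p = 0.0050, and -1.41, adjusted p = 0.080, with the offset. The haem scavenger Hpx fell (424 CPM against 2490.4, medians), and the transferrin receptor Tfrc was at 5.32 to 33.6 CPM in tumours, median 17.6, and 36.4 to 56.2 in WT, median 45.1. Tfrc had a log2 fold change of -1.36, and -1.59 with the offset.

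Transcription factors of the hepatocyte differed from one another. Hnf4a, a master regulator of liver genes, was at 409.8 to 1044 CPM in tumours, median 787, and 612 to 797 in WT, median 712, and did not pass (log2 fold change 0.09, adjusted p = 0.67, and -0.20, adjusted p = 0.40, with the offset), with overlapping groups. Foxa2 (log2 fold change -0.08, adjusted p = 0.79, and 0.05, adjusted p = 0.88, with the offset) and Cebpa (log2 fold change -0.36, adjusted p = 0.086, and -0.41, adjusted p = 0.092, with the offset) did not pass either, although Cebpa passed with upper-quartile factors, on thinned counts and without CAB26. Of the whole list 5 rose and 8 fell of 23 tested (21.7% and 34.8%). Summed over the list, the level was 15545.5 to 26315 CPM in tumours and 3850 to 4131 in WT. The members that rose are not reported here. Creb3l3, a membrane-bound factor that controls triglyceride genes, was at 29.1 to 84.8 CPM in tumours, median 43.8, and 251 to 287 in WT, median 280.1. Foxa3 was at 7.25 to 49.5 CPM in tumours, median 13.6, and 72.3 to 115 in WT, median 96.4. Both fell without overlap. Creb3l3 had a log2 fold change of -2.43, SE 0.211, adjusted p = 4.7e-08, and -2.40 with the offset. Foxa3 had a log2 fold change of -2.42, and -2.07 with the offset. Onecut2 (84.1 CPM against 323, medians), Hhex (21.9 CPM against 104) and Onecut1 (20.8 CPM against 201) fell as well. Nuclear receptors and their coregulators rose more often than they fell: 20 rose and 1 fell of 41 tested (48.8% and 2.44%; median log2 fold change 1.34, and 0.81 with the offset). Pparg, a lipid-storage receptor that is low in normal liver, was at 29.5 to 96.7 CPM in tumours, median 78.2, and 2.20 to 4.203 in WT, median 3.62. Its rise was 20.6-fold and held in every tumour. Pparg had a log2 fold change of 4.37, SE 0.338, adjusted p = 1.4e-08, and 4.68 with the offset. The corepressor Ncor1, a long transcript, was at 4005 to 7636 CPM in tumours, median 5979, and 245 to 281 in WT, median 266. Ncor1 had a log2 fold change of 4.50, SE 0.175, adjusted p = 1.9e-11, and 3.33 with the offset. The glucocorticoid receptor Nr3c1 (557 CPM against 144) and thyroid hormone receptor Thrb (299.6 CPM against 79.4) rose, and of the coactivator pair Ppargc1a rose (54.8 CPM against 15.1) while Ppargc1b fell (4.97 CPM against 25.95). The bile acid receptor Nr1h4 had a median of 139 CPM in tumours and 180.1 in WT, with overlapping ranges (log2 fold change -0.41, adjusted p = 0.097, and 0.06, adjusted p = 0.80, with the offset), and passed with upper-quartile factors and without CAB26.

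Of the list of endoplasmic reticulum chaperones and stress response genes 5 rose and 19 fell of 31 tested (16.1% and 61.3%; median log2 fold change -0.77, and -0.92 with the offset). The chaperone Hspa5 (BiP) was at 358 to 679 CPM in tumours, median 414, and 752 to 954 in WT, median 924. Hsp90b1 was at 170.1 to 359 CPM in tumours, median 309.6, and 999 to 1238 in WT, median 1104. Calreticulin (Calr) was at 186 to 297 CPM in tumours, median 232, and 695 to 918 in WT, median 817. These chaperones were separated from WT in all animals. Hspa5 had a log2 fold change of -0.98, and -0.98 with the offset. Hsp90b1 had a log2 fold change of -1.91, and -1.77 with the offset. Calr had a log2 fold change of -1.75, and -1.40 with the offset. Creld2 and Manf, secreted proteins induced by unfolded protein, fell to medians of 9.82 CPM against 68.3 and 28.5 CPM against 144. Ern1, a sensor of unfolded protein, fell too (log2 fold change -1.87, and -2.53 with the offset), and Xbp1, which it splices, was at 82.3 to 229.9 CPM in tumours, median 159, and 221 to 438 in WT, median 305. Xbp1 had a log2 fold change of -1.07, and -0.92 with the offset. The 5 that rose were Eif2ak3, Ddit3, Atf3, Asns and Fgf21. Fgf21, a hormone of the fasted liver, was at 2.75 to 34.9 CPM in tumours, median 14.2, and 0.0734 to 0.876 in WT, median 0.420. Fgf21 had a log2 fold change of 5.13, SE 0.641, adjusted p = 3.1e-06, and 5.81 with the offset. Asparagine synthetase Asns was at 1.67 to 209 CPM in tumours, median 31.3, and 0.997 to 2.37 in WT, median 1.58. Asns had a log2 fold change of 4.92, SE 0.926, adjusted p = 2.0e-04, and 5.32 with the offset. CAB52 was the highest for Asns, and without it the log2 fold change was 4.14 (adjusted p = 1.1e-04). Ddit3 (CHOP) was at 7.46 to 44.1 CPM in tumours, median 13.7, and 3.59 to 5.84 in WT, median 5.08. Ddit3 had a log2 fold change of 1.95, and 2.63 with the offset. Fgf21 and Ddit3 were above WT in every tumour, and Asns overlapped. Atf4, a transcription factor that acts on Asns and Ddit3, is controlled mainly by translation, and its mRNA was at 35.3 to 111 CPM in tumours, median 63.5, and 46.7 to 68.8 in WT, median 57.0. Atf4 had a log2 fold change of 0.18, adjusted p = 0.43, and 0.39, adjusted p = 0.087, with the offset.

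The promoters of Fgf21, Slc7a11 and Slc1a4 are shown because they rose and hold TGATGCAA, the composite site known to bind Atf4 with a C/EBP protein. The sequences are RefSeq windows on GRCm38.p6 from 250 bases before to 50 bases after the annotated start, on the strand of the gene. The capitals mark these letters or their reverse complement TTGCATCA, searched on both strands: Fgf21 at chr7:45615441-45615740 on the minus strand, Slc7a11 at chr3:50443564-50443863 on the minus strand and Slc1a4 at chr11:20332664-20332963 on the minus strand.
Fgf21: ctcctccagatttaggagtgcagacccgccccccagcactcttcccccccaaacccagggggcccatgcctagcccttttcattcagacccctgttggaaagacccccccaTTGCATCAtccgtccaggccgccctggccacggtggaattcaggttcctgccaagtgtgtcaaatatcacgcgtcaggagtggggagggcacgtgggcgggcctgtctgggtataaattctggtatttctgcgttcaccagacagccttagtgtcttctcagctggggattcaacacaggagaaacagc
Slc7a11: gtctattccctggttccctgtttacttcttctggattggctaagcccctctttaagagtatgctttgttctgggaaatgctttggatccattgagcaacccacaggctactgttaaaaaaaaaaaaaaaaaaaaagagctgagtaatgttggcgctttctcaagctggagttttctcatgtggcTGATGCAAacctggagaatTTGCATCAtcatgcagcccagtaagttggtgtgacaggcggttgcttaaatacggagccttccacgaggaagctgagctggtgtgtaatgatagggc
Slc1a4: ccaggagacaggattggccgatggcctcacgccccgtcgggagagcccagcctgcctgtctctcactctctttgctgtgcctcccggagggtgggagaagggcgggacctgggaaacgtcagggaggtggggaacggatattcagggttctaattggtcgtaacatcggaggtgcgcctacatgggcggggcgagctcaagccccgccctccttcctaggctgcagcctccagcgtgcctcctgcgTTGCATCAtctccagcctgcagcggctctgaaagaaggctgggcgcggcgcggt
Of 10 genes of the endoplasmic reticulum and amino acid transporter lists that rose and have a window, 5 held the letters (50%: Fgf21, Slc7a11, Slc1a4, Slc7a7 and Atf3), against 1 of 19 that fell (5.26%), 0 of 12 others and 251 of all 27025 windows (0.929%). A match describes the letters and is not evidence of binding. The lists and the motif were chosen with earlier results of these data known, so these shares are not a test of Atf4 action. The share among all genes that rose was not counted. Atf3 was at 1.45 to 8.13 CPM in tumours, median 2.41, and 0.440 to 3.09 in WT, median 1.19 (log2 fold change 1.30, adjusted p = 0.029, and 1.74, adjusted p = 0.0073, with the offset), and lost its call with upper-quartile factors and without any of CAB145, CAB170, BL1, BL2 or BL6 (adjusted p 0.054 to 0.064 without an animal).

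In the p53 pathway 13 rose and 3 fell of 25 tested (52% and 12%; median log2 fold change 0.70, and 0.72 with the offset). The cell cycle inhibitor Cdkn1a (p21; chromosome 17, 29090976 to 29100727) was at 14.3 to 113 CPM in tumours, median 49.2, and 0.731 to 2.49 in WT, median 1.31. The lowest tumour was several-fold above the highest WT animal. Cdkn1a had a log2 fold change of 5.35, SE 0.477, adjusted p = 7.2e-08, and 5.34 with the offset. The death gene Bbc3 (PUMA) was at 18.6 to 28.5 CPM in tumours, median 23.3, and 1.76 to 5.78 in WT, median 2.99. The stress hormone Gdf15 was at 4.204 to 28.96 CPM in tumours, median 5.45, and 0.504 to 1.33 in WT, median 0.974. Trp53 itself was at 24.8 to 43.2 CPM in tumours, median 35.6, and 14.1 to 18.5 in WT, median 15.7. All 3 genes were higher in all 9 tumours. Bbc3 had a log2 fold change of 2.83, and 2.90 with the offset. Gdf15 had a log2 fold change of 3.49, and 3.68 with the offset. Trp53 had a log2 fold change of 1.10, and 0.9997 with the offset. The ectodysplasin receptor Eda2r rose (12.4 CPM against 0.668, medians), as did Mdm2, which targets p53 for destruction (58.6 CPM against 36.8; log2 fold change 0.66, and 0.46 with the offset), whereas Perp fell (14.4 CPM against 60.1). Nrf2 targets and glutathione genes showed no common direction (5 rose and 6 fell of 25 tested (20% and 24%)), and the sign of the balance depended on the setting. The catalytic subunit of glutathione synthesis Gclc rose (log2 fold change 1.64, and 1.77 with the offset) and its modifier Gclm fell. Gclm had a log2 fold change of -1.10, and -1.38 with the offset. Haem oxygenase Hmox1 was at 6.51 to 25.2 CPM in tumours, median 14.3, and 9.40 to 19.9 in WT, median 12.1. Hmox1 had a log2 fold change of 0.07, adjusted p = 0.82, and 0.61, adjusted p = 0.079, with the offset.

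**Figure D3:**
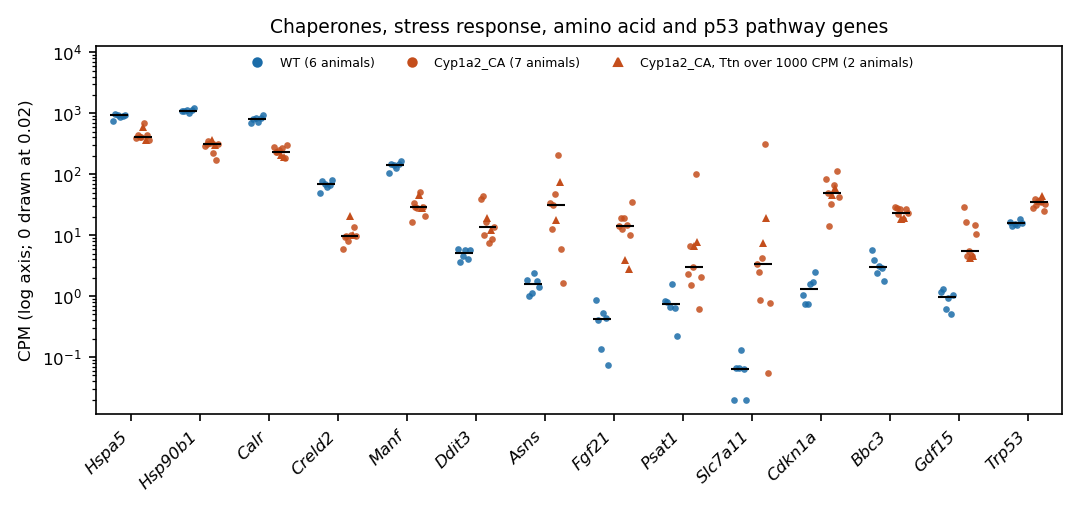
CPM per animal (log axis, 0 drawn at 0.02) of chaperones, stress response genes, amino acid synthesis and transport genes and p53 pathway genes in WT and tumours, with black bars at the medians and triangles for CAB44 and CAB225. The 5 chaperone and secreted folding genes on the left lie lower in every tumour, while Fgf21, Cdkn1a, Bbc3 and Gdf15 lie higher in every tumour and Asns, Psat1 and Slc7a11 spread over a wide range.

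Of the growth factors 8 rose and 2 fell of 25 tested (32% and 8%), a share of rises near that of all genes. Neuregulin 1 (Nrg1; chromosome 8, 31814551 to 32884029), a ligand of the receptors Erbb3 and Erbb4, was at 54.6 to 429.9 CPM in tumours, median 144.5, and 0.532 to 1.64 in WT, median 1.30. The lowest tumour exceeded the highest WT animal by more than an order of magnitude. Nrg1 had a log2 fold change of 7.17, SE 0.611, adjusted p = 4.3e-08, and 6.36 with the offset. Nrg4, another ligand of that family, fell (2.50 CPM against 15.2, medians; log2 fold change -2.70, and -3.01 with the offset). Erbb3 was at 11.2 to 33.6 CPM in tumours, median 22.9, and 71.4 to 111 in WT, median 93.4. The EGF receptor Egfr was at 50.5 to 447 CPM in tumours, median 104, and 904 to 1711 in WT, median 1077. No tumour reached the WT range for either receptor. Erbb3 had a log2 fold change of -1.99, SE 0.222, adjusted p = 8.0e-07, and -2.37 with the offset. Egfr had a log2 fold change of -2.81, SE 0.438, adjusted p = 3.2e-05, and -3.78 with the offset. Fgfr3 rose (184 CPM against 31.5; log2 fold change 2.62, and 1.80 with the offset), and the hepatocyte growth factor receptor Met was at 60.4 to 128 CPM in tumours, median 89.1, and 115 to 147 in WT, median 143. Met had a log2 fold change of -0.50, and -1.08 with the offset. Of all receptor tyrosine kinases 5 rose and 8 fell of 31 tested (16.1% and 25.8%), and the direction of the list turned with the offset (5 higher and 13 lower) and without CAB44 and CAB225 (10 and 13). Igf1r is an example, with a log2 fold change of 1.24 without and -0.29 with the offset. Vegfa (355 CPM against 146), Fgf1 (469 CPM against 152) and Pdgfa (22.5 CPM against 6.86) rose.

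Of the growth hormone and IGF axis 5 rose and 4 fell of 21 tested (23.8% and 19%); the growth hormone receptor Ghr fell (309 CPM against 571, medians; log2 fold change -0.74, and -1.35 with the offset) and its kinase Jak2 rose (66.2 CPM against 21.3; log2 fold change 1.62, and 1.47 with the offset). The main product Igf1 was at 513 to 1625 CPM in tumours, median 1136, and 764 to 865 in WT, median 804, and did not pass (log2 fold change 0.42, adjusted p = 0.095, and -0.32, adjusted p = 0.18, with the offset), but passed with limma-voom and without CAB145 or CAB52. Igfbp4 fell (328 CPM against 1384), and Igfbp1 was at 5.96 to 1631 CPM in tumours, median 70.3, and 3.69 to 34.6 in WT, median 17.9. CAB52 was the highest of the tumours for Igfbp1, and the log2 fold change of 3.85 became 2.30 (adjusted p = 0.010) without it. In the Hippo pathway 5 rose and 5 fell of 22 tested (22.7% and 22.7%); Yap1 rose (log2 fold change 1.54, and 0.77 with the offset) and its targets Ctgf (log2 fold change -0.17, adjusted p = 0.74, and 0.19, adjusted p = 0.72, with the offset) and Cyr61 (log2 fold change 0.26, adjusted p = 0.37, and 0.72, adjusted p = 0.025, with the offset) did not rise in both fits. In the Notch pathway 5 rose and 7 fell of 24 tested (20.8% and 29.2%), with Notch2 at 25.97 to 49.8 CPM in tumours, median 36.9, and 89.0 to 124 in WT, median 112 (log2 fold change -1.59, SE 0.132, adjusted p = 2.8e-08, and -2.72 with the offset) and its target Hes1 at 2.46 to 12.1 CPM in tumours, median 4.77, and 2.63 to 5.60 in WT, median 4.22. Hes1 had a log2 fold change of 0.45, adjusted p = 0.23, and 1.02, adjusted p = 0.020, with the offset. In the TGF-beta and BMP pathway 10 rose and 9 fell of 37 tested (27% and 24.3%). The hepatocyte activin chains Inhbc (19.3 CPM against 74.5) and Inhbe (16.98 CPM against 55.5) fell, and so did the activin receptor Acvr1b (2.56 CPM against 11.8). Tgfb1 was at 3.60 to 15.1 CPM in tumours, median 4.24, and 7.12 to 12.04 in WT, median 9.83 (log2 fold change -0.67, adjusted p = 0.066, and -0.99, adjusted p = 0.0058, with the offset); it was -0.77 (adjusted p = 0.042) without CAB44, -0.98 (adjusted p = 9.7e-04) without CAB225 and -1.17 (adjusted p = 1.0e-05) without both.

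Of the clock genes 8 rose and 9 fell of 22 tested (36.4% and 40.9%). Those that rose included Clock, Arntl, Npas2, Rora, Nfil3, Csnk1d and Csnk1e, and those that fell were Per2, Per3, Cry1, Cry2, Nr1d2, Dbp, Tef, Ciart and Bhlhe40. In the core loop, Arntl (BMAL1) pairs with Clock or Npas2 to switch on Per, Cry, Nr1d and Dbp genes. The Per and Cry products then switch the pair off. Arntl (chromosome 7, 113207465 to 113314126) was at 59.6 to 300.3 CPM in tumours, median 142, and 1.46 to 4.43 in WT, median 2.41, a rise of 62.3-fold. Arntl had a log2 fold change of 5.96, SE 0.401, adjusted p = 3.0e-09, and 5.39 with the offset. Npas2 was at 4.26 to 47.1 CPM in tumours, median 16.1, and 0 to 0.642 in WT, median 0.199. Clock was at 321 to 496 CPM in tumours, median 400.4, and 44.9 to 76.5 in WT, median 64.7. All 9 tumours were above all 6 WT animals for these 3 genes. Npas2 had a log2 fold change of 6.30, and 6.10 with the offset. Clock had a log2 fold change of 2.70, and 1.57 with the offset. Without BL1 the Npas2 value was 7.03 (adjusted p = 2.1e-06). Of the genes known as targets of the pair, Dbp was at 1.89 to 21.2 CPM in tumours, median 5.29, and 63.2 to 143 in WT, median 88.1. Nr1d2 was at 6.15 to 21.9 CPM in tumours, median 13.8, and 80.5 to 108 in WT, median 86.1. Ciart was at 0.111 to 2.50 CPM in tumours, median 1.13, and 11.6 to 20.01 in WT, median 13.4. Each was lower in every tumour. Dbp had a log2 fold change of -3.46, SE 0.492, adjusted p = 1.2e-05, and -3.63 with the offset. Nr1d2 had a log2 fold change of -2.76, and -2.90 with the offset. Ciart had a log2 fold change of -3.49, and -3.08 with the offset. Per2 (26.98 CPM against 114, medians), Cry2 (7.15 CPM against 29.8) and Bhlhe40 (25.3 CPM against 168) fell as well, while Nr1d1 was at 5.63 to 44.7 CPM in tumours, median 26.3, and 21.95 to 108 in WT, median 30.4 (log2 fold change -0.95, adjusted p = 0.081, and -0.97, adjusted p = 0.073, with the offset) and Per1 at 7.59 to 77.3 CPM in tumours, median 59.1, and 46.4 to 91.3 in WT, median 64.4. Per1 had a log2 fold change of -0.43, adjusted p = 0.32, and -1.18, adjusted p = 0.0080, with the offset. Nr1d1 passed with upper-quartile factors and without CAB26, and Per1 with limma-voom. Rora, which competes with the Nr1d proteins at Arntl, rose. Rora had a log2 fold change of 1.77, and 0.71 with the offset. The time of day at collection is not in the labels, and its part in these values was not tested.

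**Figure D4:**
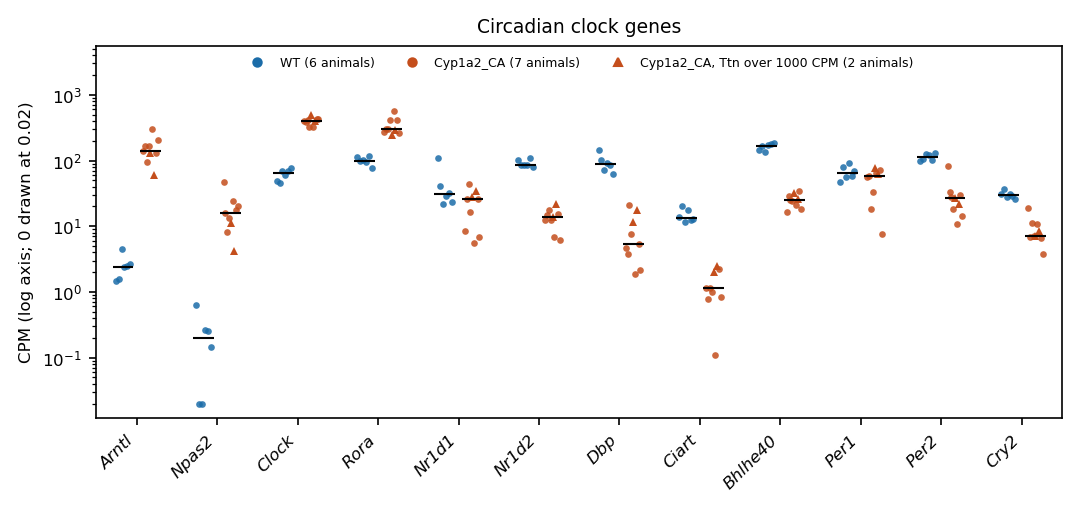
CPM per animal (log axis, 0 drawn at 0.02) of 12 clock genes in WT and tumours, with black bars at the medians and triangles for CAB44 and CAB225. Arntl, Npas2, Clock and Rora lie higher and Nr1d2, Dbp, Ciart, Bhlhe40, Per2 and Cry2 lower in every tumour animal than in every WT animal, while Nr1d1 and Per1 overlap.

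Histone and DNA modifying enzymes depended on the offset. Of 52 tested, 42 were higher and 3 lower without the offset, 30 and 14 with it, and 30 rose and 3 fell in both (57.7% and 5.77%). Kmt2d, a histone methyltransferase with a very long transcript, had a log2 fold change of 2.84 without and 0.72 with the offset, whereas the Polycomb enzyme Ezh2 (21.4 to 66.5 CPM in tumours, median 41.04, and 5.55 to 9.08 in WT, median 6.41) and the DNA methyltransferase Dnmt3b (10.01 to 31.7 CPM in tumours, median 16.6, and 1.25 to 3.02 in WT, median 2.27) had 2.71 and 3.02 without and 2.28 and 2.70 with it. Hdac1 fell (2.58 CPM against 13.9, medians; log2 fold change -2.16, and -1.95 with the offset). Imprinted genes other than Igf2 and H19 rose more often than they fell (9 rose and 2 fell of 21 tested (42.9% and 9.52%)): the maternal RNA Meg3 was at 16.4 to 1357 CPM in tumours, median 109, and 0.820 to 2.39 in WT, median 1.55. Airn was at 11.4 to 34.01 CPM in tumours, median 17.3, and 0.693 to 1.46 in WT, median 0.802, above WT in every tumour. Meg3 had a log2 fold change of 7.48, SE 1.13, adjusted p = 2.4e-05, and 5.98 with the offset. Airn had a log2 fold change of 4.27, and 4.45 with the offset. CAB145 had the highest Meg3 level, and without it the log2 fold change was 6.53 (adjusted p = 5.9e-06). In the extracellular matrix 12 rose and 5 fell of 52 tested (23.1% and 9.62%), but the direction of the list turned with the offset (12 higher, 18 lower) and without CAB44 and CAB225 (15 and 21). Col1a1, the main fibrillar collagen, was at 6.28 to 115 CPM in tumours, median 19.6, and 14.2 to 21.9 in WT, median 16.04. Col1a1 had a log2 fold change of 1.02, adjusted p = 0.14, and 0.02, adjusted p = 0.98, with the offset. Without CAB44 and CAB225 the Col1a1 value was -0.22 (adjusted p = 0.45). Macrophage elastase Mmp12 rose (5.78 CPM against 0.299; log2 fold change 4.79, and 4.38 with the offset). Of the adhesion genes, the tight junction scaffold Tjp1 (537 CPM against 102) and the hyaluronan receptor Cd44 (52.9 CPM against 12.6) rose, and the integrins Itga1 (16.8 CPM against 53.5) and Itgb1 (98.7 CPM against 202) fell.

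The largest changes that held in both fits, without overlap and without CAB44 and CAB225, were taken over all genes. Among falls stood Selenbp2, a selenium-binding protein (0.666 to 54.4 CPM in tumours, median 5.20, and 711 to 1717 in WT, median 989; log2 fold change -6.04, and -5.76 with the offset), Thrsp, a regulator of fatty acid synthesis (4.13 to 82.3 CPM in tumours, median 37.5, and 934 to 1604 in WT, median 1299; log2 fold change -5.14, and -4.71 with the offset), and several major urinary protein genes, of which Mup14 was at 0 to 7.17 CPM in tumours, median 0.615, and 184 to 386 in WT, median 254. Mup genes are near-identical, so their single values are uncertain. Short structural RNAs stood among the falls too, with n-R5s136 at rank 5 and Snora73a at rank 12. Among rises stood Rims2, a presynaptic scaffold (12.2 to 522 CPM in tumours, median 265, and 0 to 0.876 in WT, median 0.140), and Slc22a27 and Hao2, given above. H19 and Igf2 headed the rises, but their tumour medians were only 8.61 and 26.7 CPM with highest values of 22325 and 40116. Rad51b, Adgrg2 and Vldlr ranked 13, 14 and 16 among the rises and were chosen after their values were seen. Rad51b, a recombination protein, was at 32.6 to 204 CPM in tumours, median 69.6, and 0 to 0.537 in WT, median 0.129. Adgrg2, an adhesion receptor, was at 5.30 to 557 CPM in tumours, median 189.5, and 0.147 to 1.26 in WT, median 0.420, with CAB145 the lowest. The VLDL receptor Vldlr was at 40.9 to 469 CPM in tumours, median 170.4, and 0 to 1.40 in WT, median 0.745. The MHC class I gene H2-Q1, also chosen after its values were seen, was at 77.5 to 954 CPM in tumours, median 429, and 1.39 to 3.72 in WT, median 2.59 (log2 fold change 7.56, and 7.89 with the offset); H2 genes differ between strains, and strain changed with the group.

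**Figure D5:**
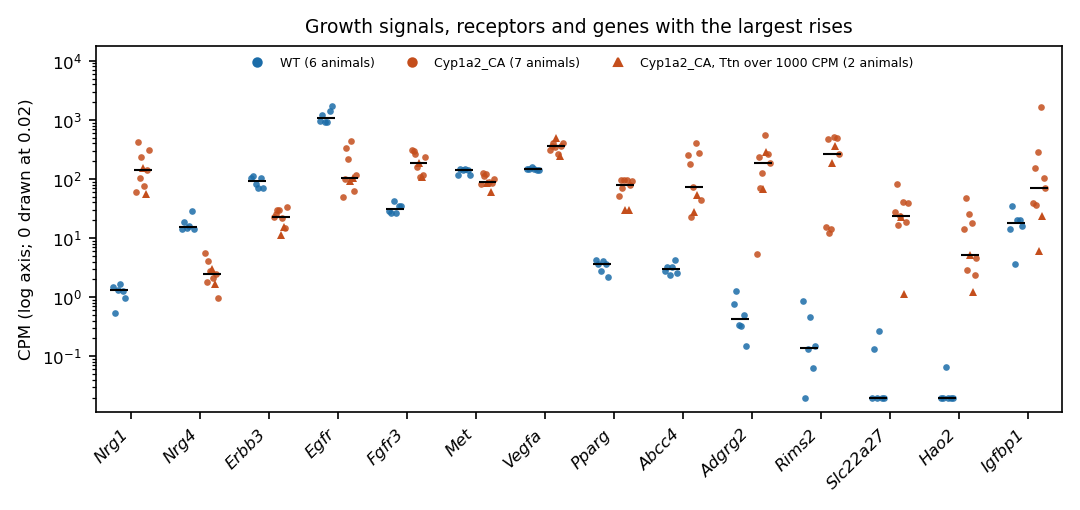
CPM per animal (log axis, 0 drawn at 0.02) of growth factors, receptors, Pparg, an export pump and genes with very large rises in WT and tumours, with black bars at the medians and triangles for CAB44 and CAB225. Nrg1, Pparg, Abcc4, Adgrg2, Rims2, Slc22a27 and Hao2 lie above WT and Nrg4, Erbb3 and Egfr below WT in every tumour animal.

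The same tumour genotype driven from periportal hepatocytes by Gls2-CreERT2 (Gls2_CA, 9 libraries from 5 animal numbers) shares strain, tamoxifen and depth per library with these tumours. It was tested against them directly. Several libraries each of GAB242 and GAB294 were summed, so these animals entered the test with more reads than the others of Gls2_CA. Of 17129 genes, edgeR called 0 (0%) between the groups. The 554 genes at an unadjusted p under 0.05 were fewer than the 5% that chance alone would mark. DESeq2 called 20 and limma-voom with quality weights 10. Nrg1 was at 117 to 467 CPM in Gls2_CA, Arntl at 65.9 to 203, Cdkn1a at 25.1 to 64.2, Ahcy at 16.4 to 42.5 and C9 at 8.86 to 81.6. These levels were scaled over Cyp1a2_CA, Gls2_CA and WT together, not over Cyp1a2_CA and WT alone as the levels above. The log2 differences, Cyp1a2_CA over Gls2_CA, were -0.47 for Nrg1, 0.44 for Arntl, 0.23 for Cdkn1a, -0.38 for Ahcy and -0.16 for C9, each with an adjusted p of 1.00. With 5 animals on one side, a missed call does not show that the tumours of the 2 drivers were alike.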

How the data were processed

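RNA from frozen tissue was measured as bulk RNA-seq libraries (Nugen Ovation, per the labels' protocols). The authors deposited 1 table of raw read counts per gene symbol, 35976 symbols in 26 libraries, on mm10 per the submitters' processing notes; the aligner, counter, annotation and strand setting were not given in the sources that were used. Groups came from the genotype labels. Libraries of 1 animal number were summed, and no pair of libraries of a group agreed within counting noise. Nothing in the labels pairs animals across groups.

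Counts were tested with edgeR 4.0.16 in R 4.3.3 (quasi-likelihood, robust, TMM factors, filterByExpr, Benjamini-Hochberg, threshold 0.05), with the 2 groups of each comparison in the fit. A second fit added a per-library offset for exon length and GC content, from a loess trend (span 0.3) on GENCODE M21 gene models; 27277 of the symbols (75.8%) matched one. Alternatives were DESeq2 1.42.0, limma-voom 3.58.1 with quality weights, other scaling factors and filters, other replicate units, thinned counts and leaving out animals. The scripts were tested on simulated counts. Fold changes are edgeR's fitted values. Their SE was derived from the test, as the absolute log2 fold change divided by the square root of the F statistic.

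Members, gene lists, motif and naming rule were chosen with earlier results of these data known. The rule named genes marked in the lists, up to 4 members per list with the smallest p in both fits, and the 12 largest rises and falls of all genes; the text names part of these, and some are not reported here. Promoters are RefSeq windows of 27025 genes. Genes of near-identical families (Mup, Ugt1a, Ugt2b, Cyp2c, Cyp2d, Ces1, Serpina1, Serpina3, H2-Q, C4a and C4b) are uncertain, as are overlapping and antisense genes.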

Additional observations from a re-analysis of the deposited data

Results flagged for a closer look

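Of 372 groups of animals checked for the genes named, 27 held an animal whose gap to its nearest neighbour, on the log2 CPM scale with a pseudocount of 1, was a large part of the whole range (Dixon's 95% limit). Chance alone marks about 1 in 20 groups. CAB145 was the highest tumour for Tat (805 CPM, next 221). CAB145 was the lowest tumour for Adgrg2 (5.30 CPM, next 67.2), Fga (476 CPM, next 1200.4), Mitf (14.4 CPM, next 27.5) and Acvr1b (0.289 CPM, next 1.75). CAB225 was the lowest tumour for Slc22a27 (1.15 CPM, next 16.5). CAB239 was the lowest tumour for Gldc (1.87 CPM, next 7.68). CAB26 was the highest tumour for Ugt2b38 (0.776 CPM, next 0.192). CAB44 was the highest tumour for Hamp2 (10.95 CPM, next 2.54). CAB52 was the highest tumour for Psat1 (101 CPM, next 7.65), Psph (34.3 CPM, next 11.2), Ctps2 (205 CPM, next 73.2) and Cars (301 CPM, next 105). CAB52 was the lowest tumour for Aass (4.36 CPM, next 27.1), Gnmt (31.6 CPM, next 195), Bhmt (15.5 CPM, next 70.6) and Ppargc1b (0.694 CPM, next 3.58). BL1 was the lowest WT animal for Rn7sk (68.7 CPM, next 163), Clec4f (67.5 CPM, next 76.8), Aass (230.4 CPM, next 312), Psmc4 (53.1 CPM, next 60.4) and Igf1r (6.25 CPM, next 8.44). BL2 was the highest WT animal for Cyp3a13 (178 CPM, next 115). BL2 was the lowest WT animal for Creb3l3 (251 CPM, next 275). BL3 was the highest WT animal for Hao2 (0.0671 CPM, next 0), Nr3c1 (164 CPM, next 144.9) and Vegfa (162 CPM, next 149). The cause of these values was not tested.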

How the results depend on the processing

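Against WT, the count of changed genes was 11941, 11497 to 12004 when each animal was left out, and 9995 to 12843 under the other settings; with the offset it was 10288, and 9851 to 10403 when each animal was left out. Upper-quartile factors moved the median log2 fold change of all genes from 0.17 to -0.05 and limma-voom to -0.00, so small changes are relative to those shifts. Of 5018 values of named genes under an alternative, 4966 kept their side of the threshold, 9 lost a call, 42 gained one and 1 was counted as reversed. That was Igf1r, which had -0.29 with the offset, built to remove the trend with exon length. Values that missed the threshold in both settings could change sign within the 4966. Ahsg did so without CAB52 (0.59 to -0.18) and Col1a1 without CAB44 and CAB225 (1.02 to -0.22). Against Gls2_CA, edgeR called 0 genes in the settings run, leaving out each animal included, while DESeq2 called 20 and limma-voom 10; the cause was not tested. The direction of the Nrf2, receptor tyrosine kinase, growth hormone, Hippo, TGF-beta, tRNA synthetase, extracellular matrix, adhesion and cholangiocyte lists turned in at least 1 setting. WT libraries had fewer reads, which limits genes at a few counts there. No paired analysis was possible because the numbers in the titles name animals and pair none across the groups.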

Other observations

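Of the chemokines, cytokine receptors and checkpoint ligands 3 rose and 7 fell of 28 tested (10.7% and 25%), neither share above that of all genes. Il6st, the signalling chain of the interleukin 6 receptor, was at 40.2 to 82.2 CPM in tumours, median 57.1, and 251 to 299 in WT, median 267. Il6st had a log2 fold change of -2.13, SE 0.135, adjusted p = 1.6e-09, and -3.13 with the offset. Its partner Il6ra (32.3 CPM against 91.2, medians) and the chemokine Cxcl12 (56.8 CPM against 167) fell too, while Il18 rose (19.97 CPM against 9.15). In retinoid handling 7 rose and 6 fell of 20 tested (35% and 30%). Transthyretin (Ttr), which carries retinol-binding protein and thyroxine, was at 502 to 2359.9 CPM in tumours, median 1349.9, and 4123 to 6559 in WT, median 5039 (log2 fold change -1.94, SE 0.267, adjusted p = 8.4e-06, and -1.10 with the offset), and Dhrs3, which reduces retinal, rose (240.4 CPM against 78.7). Of the cytosolic tRNA synthetases 3 rose and 7 fell of 20 tested (15% and 35%): Cars for cysteine rose (95.2 CPM against 24.1) and Tars for threonine fell (42.9 CPM against 128).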
